A study of Rattus norvegicus with 6 samples.

Results

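Mmp9 and Spp1 are genes of matrix remodelling, and each is described here through 1 transcript, ENSRNOT00000088776.1 for Mmp9 and ENSRNOT00000075989.1 for Spp1. These are 2 of the 31715 transcripts counted in basilar artery smooth muscle cells (BASMCs) of the rat. They were selected on their difference between the diets, so their levels are given as a description with no test. In the exact test of edgeR with the settings of the study, a transcript was chosen at a 2-fold change and an unadjusted p under 0.05. The paper's results name a corrected p as its threshold, and its methods name a two-sided p under 0.05 without a correction. The p in its list of changed transcripts is the unadjusted p of this test. At these settings Mmp9 had p = 0.0343 and a log2 fold change of 7.62, and Spp1 had p = 0.000856 and a log2 fold change of 10.13, both in that exact test. The controls held no rounded count of either, so these fold changes have no measured control level and are not read as sizes. The last transcript inside the threshold had p = 0.0499 and the first one outside it p = 0.0501 in the same exact test.

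The control group was 3 male rats (strain labelled Spraque-Dawley, 180 to 200 g, 6 weeks old when obtained) on normal chow. The high-salt diet group was 3 such rats on the same chow with 4% NaCl added by weight for 4 weeks. Each library came from the cells of a single rat. Brain basilar arteries were freed of connective tissue and the endothelium was scraped off with a wire, and the remaining cells were collected, among which other cells of the vessel wall could remain. Polyadenylated RNA was sequenced, and the deposited values are counts estimated by Kallisto, in which a read with more than 1 fitting transcript is shared out and counts can be non-whole.

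Mmp9 encodes gelatinase B, a secreted metalloproteinase that cleaves denatured collagen, type IV collagen and elastin, and neutrophils store it in granules. Spp1 encodes osteopontin, a phosphorylated matrix glycoprotein that binds integrins and CD44. Both are known to be made by vascular smooth muscle cells and macrophages in arteries that are injured or remodelling.

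Depth ranged from 12896098 counts (control replicate 1) to 24718338 (control replicate 2). Control replicate 3 had 23198636, and the high-salt replicates had 16159272 (replicate 1), 19522923 (replicate 2) and 20589033 (replicate 3). Levels are depth-scaled counts (CPM) adjusted by the trimmed mean of M values (TMM), without a correction for length, so the levels of different genes are not compared. A floor of 3 counts in a library ranged from 0.119 CPM (control replicate 2) to 0.254 CPM (control replicate 1), for counting error alone. High-salt replicate 2 stood apart from the other 5 libraries. In it, 863 transcripts had no count after rounding although each other library had at least 10 counts of them. The same number was 42, 124 and 31 for control replicates 1, 2 and 3, and 14 and 57 for high-salt replicates 1 and 3. The opposite pattern, at least 10 counts in 1 library and none elsewhere, was met by 103 transcripts in high-salt replicate 2, within the 61 to 113 of the other 5 libraries. Values without this library are given beside the differences of Mmp9 and Spp1, the matrix list and the granulocyte, leukocyte, neuron and fibroblast sums.

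**Figure D1:**
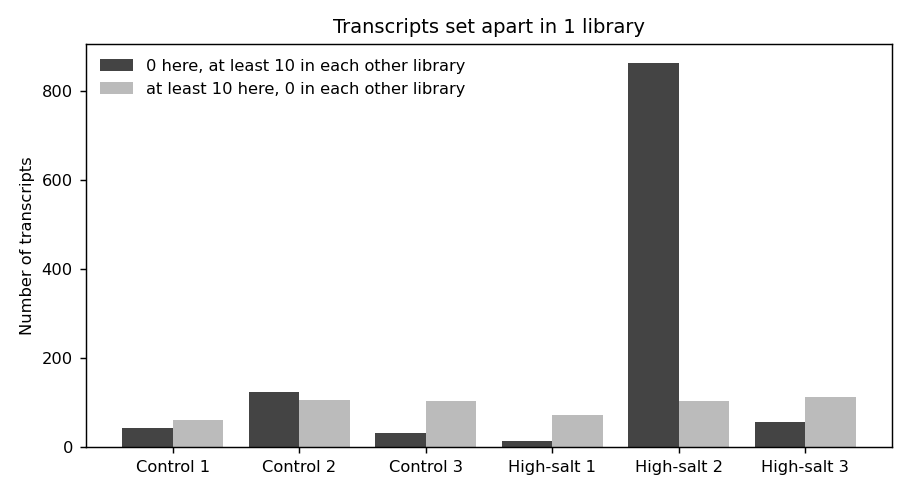
Number of transcripts set apart in each library. Dark bars count transcripts with no count in the library and at least 10 in each of the other 5, and light bars count the opposite pattern; high-salt replicate 2 has 863 of the first kind, and the next highest library has 124.

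The Mmp9 transcript had no count in control replicates 1, 2 and 3, and 5.74, 0 and 70.0 estimated counts in high-salt replicates 1, 2 and 3. In CPM, the high-salt libraries were at 0.314, 0 and 3.41. Most of the level of the high-salt diet group thus came from replicate 3, replicate 1 was just above its floor of 0.164 CPM, and replicate 2 was as empty as the control libraries, so the groups overlapped. The mean was 1.24 ± 1.89 CPM (SD, n = 3), at least 7.38-fold higher than the mean floor of 3 counts per library in the control group. This bound rests on high-salt replicate 3 and does not hold without it. On the log2(CPM + 1) scale the high-salt diet group was higher by 0.85 (SE 0.66, n = 3 per group). Without high-salt replicate 3 this difference was 0.20, and without high-salt replicate 2 it was 1.27. Between libraries of the same replicate number it was 0.39, 0 and 2.14 for replicates 1, 2 and 3. In RNA of a whole cell preparation, fewer cells of a type and less RNA per cell cannot be told apart.

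The Mmp9 count of high-salt replicate 1 was not whole, so part of its reads also fitted another transcript. No set of neighbouring transcripts in the table gave whole sums with it in every library, and the transcript that shared its reads was not located. The transcript listed just before it, whose gene was not established, also had a non-whole count in high-salt replicate 1 and in no other library. That neighbour had 4, 27 and 15 counts in the controls and 11.5, 0 and 0 under high salt. It was present in the controls, where Mmp9 was not, and missing from high-salt replicate 3, where Mmp9 was highest. Its level was 0.690 ± 0.367 CPM among controls and 0.210 ± 0.365 CPM on the high-salt diet (SD, n = 3 each). The groups overlapped through high-salt replicate 1. Their sum in high-salt replicate 1 was 17.3 counts, which is not whole, so these 2 transcripts do not account for all the shared reads there. Summed, they stood at 0.339, 1.07 and 0.661 CPM in the controls and at 0.946, 0 and 3.41 CPM under high salt. The difference on the log2(CPM + 1) scale was then 0.30, with overlap of the groups. This sum had no steady direction: the difference was -0.25 without high-salt replicate 3, 0.82 without high-salt replicate 2 and 0.14 without control replicate 1. Between libraries of the same replicate number it was 0.54, -1.05 and 1.41 for replicates 1, 2 and 3.

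The Spp1 transcript had no count after rounding in the 3 controls, and 36.3, 367 and 0 counts in high-salt replicates 1, 2 and 3. These are 1.98, 19.3 and 0 CPM. High-salt replicate 2 was the highest and replicate 3 was at the level of the control libraries, so the groups overlapped. The mean of the high-salt diet group was 7.11 ± 10.6 CPM (SD, n = 3), at least 42.2-fold higher than the mean floor of the control libraries. This bound rests mostly on high-salt replicate 2 and is several times lower without it. The difference on the log2(CPM + 1) scale was 1.97 (SE 1.27, n = 3 per group), and without high-salt replicate 2 it was 0.79. The Mmp9 and Spp1 transcripts were seen together in high-salt replicate 1 alone. Replicate 2 held the Spp1 transcript without that of Mmp9, and replicate 3 held the Mmp9 transcript without that of Spp1. This does not hold for the read-sharing pair of Spp1 described below, which was at 20.6 CPM in high-salt replicate 3.

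**Figure D2:**
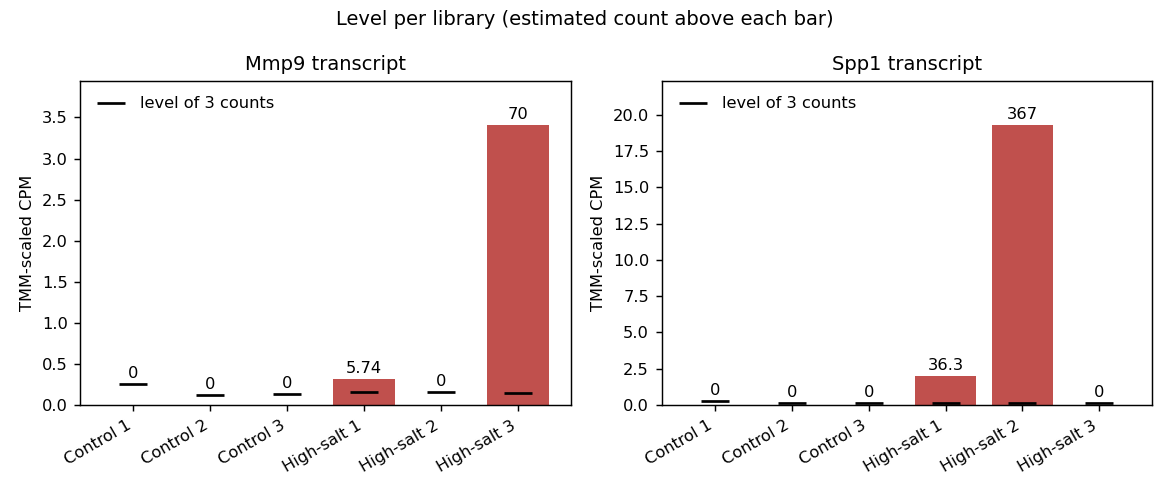
Level of the Mmp9 transcript (left) and the Spp1 transcript (right) in each library, in TMM-scaled CPM, with the estimated count above each bar and a dash at the level of 3 counts. Control libraries have no visible bar, since neither transcript had a rounded count there. Mmp9 reaches 3.41 CPM in high-salt replicate 3, and Spp1 reaches 19.3 CPM in high-salt replicate 2.

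The Spp1 transcript is taken to share reads with the transcript listed just before it, ENSRNOT00000067875.4, as their counts added up to whole numbers. Only high-salt replicate 1 bears on this, with 36.2519 counts of Spp1 and 570.748 of the other. In the other libraries both counts were whole, or in control replicate 1 almost so, and a whole sum was given. This partner had 1161, 817 and 722 counts in control replicates 1, 2 and 3, and 571, 0 and 423 under high salt. It was thus present in 5 libraries and missing from high-salt replicate 2, the library in which the Spp1 transcript was highest. The Spp1 transcript made up 5.97% of the pair in high-salt replicate 1 (95% Clopper-Pearson interval 4.19% to 8.12%) and 100% in high-salt replicate 2 (99.0% to 100%). In the remaining libraries its share was 0 after rounding of the counts. By the floor of 3 counts, a count of 0 there allows a share of up to 0.258%, 0.367% and 0.416% in control replicates 1, 2 and 3 and up to 0.709% in high-salt replicate 3. The limits and the intervals cover counting error in the assigned reads alone.

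Summed over the pair, the level was 98.4, 32.4 and 31.8 CPM in control replicates 1, 2 and 3 and 33.2, 19.3 and 20.6 CPM in high-salt replicates 1, 2 and 3. Control replicate 1 was far above the rest, and the groups overlapped because high-salt replicate 1 lay just above control replicates 2 and 3. The mean was 54.2 ± 38.3 CPM among controls and 24.4 ± 7.67 CPM on the high-salt diet (SD, n = 3 each). The sum was therefore lower in the high-salt diet group, by -0.95 on the log2(CPM + 1) scale (SE 0.58, n = 3 per group), while the single Spp1 transcript was higher. Leaving out control replicate 1 brought the difference to -0.42, and leaving out high-salt replicate 2 gave -0.81. Between libraries of the same replicate number the high-salt library was the lower one each time, with a control level 2.96, 1.68 and 1.54 times the high-salt level for replicates 1, 2 and 3. A sum that contains a transcript chosen on the diets is not independent of that choice.

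The 2 transcripts listed next closed among themselves in every library and so shared no reads with the pair that the counts can show. Their sum was 12.8, 66.8 and 64.6 CPM in the controls and 37.4, 74.9 and 64.6 CPM under high salt. Control replicate 1 was lowest here and highest in the Spp1 pair. The earlier of these 2 transcripts had 32.6, 91.9 and 360 counts in the controls and 97.9, 0 and 318 under high salt, so it too was missing from high-salt replicate 2. Taking all 4 transcripts together gave 111, 99.2 and 96.4 CPM in the controls and 70.6, 94.2 and 85.2 CPM under high salt. The 4-transcript sum varied less across the 6 libraries, with an SD of 14.8% of its mean, than the pair at 75.3% or the following 2 transcripts at 44.2%. The read-sharing set listed before the pair was at 79.6%, with a difference of -0.076 on the log2(CPM + 1) scale, and is in neither sum. The 4-transcript sum was 102 ± 7.84 CPM among controls and 83.4 ± 11.9 CPM on the high-salt diet (SD, n = 3 each). The groups did not overlap, as for 5.50% of all 24253 transcripts tested, and the difference was -0.30 on the log2(CPM + 1) scale (SE 0.14, n = 3 per group). High-salt replicate 1 was the lowest library, and without it the difference was -0.19, against -0.39 without high-salt replicate 2. Between libraries of the same replicate number the difference was -0.65, -0.073 and -0.18 for replicates 1, 2 and 3, so it was largest for replicate 1. Whether all 4 transcripts belong to Spp1 was not established, so both the pair and the 4 are given. Both sums were lower on the high-salt diet, but the sum of 4 contains the pair. The 2 transcripts listed next were by themselves higher, by 0.55 on the log2(CPM + 1) scale (SE 0.81, n = 3 per group), with overlap of the groups.

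**Figure D3:**
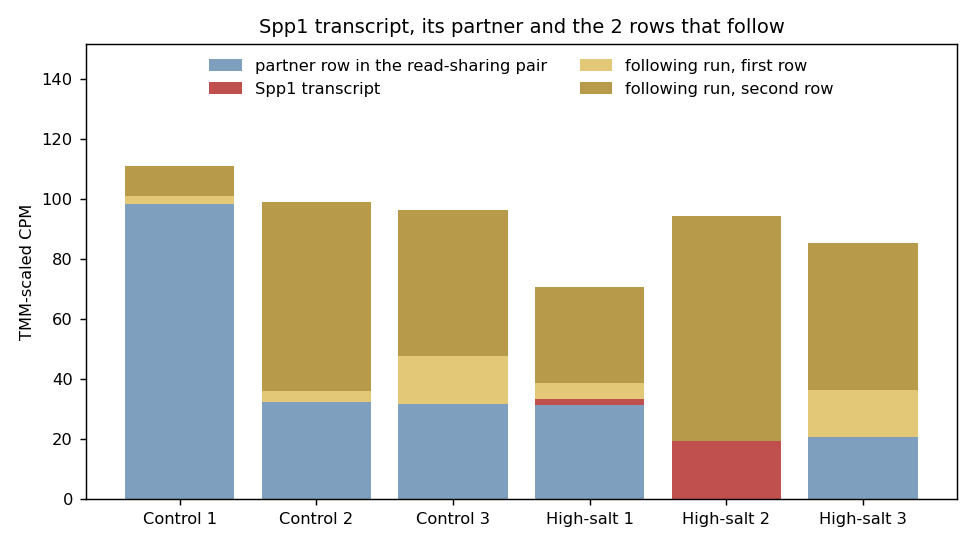
Stacked levels in TMM-scaled CPM of the Spp1 transcript (red), its read-sharing partner (blue) and the 2 transcripts listed next (yellow and brown) in each library. The red part is 1.98 CPM of the pair in high-salt replicate 1 and all 19.3 CPM of it in high-salt replicate 2.

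Loss of a leading transcript from a read-sharing set, as in the Spp1 pair, was uncommon. Of 1948 sets with at least 100 counts in every library, 469 had 1 transcript that held at least 90% of the set in each library other than high-salt replicate 2. In high-salt replicate 2 itself, that transcript held less than 1% in 3 of these 469 sets (0.640%), and the Spp1 pair is 1 of the 3. The same happened in 1 of 448 sets in control replicate 2, and in 0 of 448, 454, 444 and 443 sets in control replicates 1 and 3 and high-salt replicates 1 and 3.

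Presence in exactly 2 libraries of a single group, the pattern of both Mmp9 and Spp1, was met by 212 transcripts in the high-salt diet group and by 389 in the control group. The pattern of Mmp9, with counts in high-salt replicates 1 and 3 alone, was shared by 108 transcripts, or 0.445% of the 24253 with a rounded count. That of Spp1, with counts in high-salt replicates 1 and 2 alone, was met by 49 (0.202%), and replicates 2 and 3 alone by 55 (0.227%). In the control group the corresponding counts were 209 for replicates 1 and 3, 106 for replicates 1 and 2, and 74 for replicates 2 and 3. For each choice of replicate numbers, more transcripts were thus limited to 2 control libraries than to 2 high-salt libraries.

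Across all 24253 transcripts, edgeR's exact test, run on the rounded counts, called 0.577% higher (140) and 0.647% lower (157) on the high-salt diet, at an unadjusted p under 0.05 and a 2-fold change. Spp1 was among the 140 and Mmp9 was not, and since both were chosen on this contrast nothing is read from that. After Benjamini-Hochberg adjustment, 1 transcript had an adjusted p under 0.05 in this exact test, and it was neither Mmp9 nor Spp1. With each library left out in turn, 3 to 12 transcripts had an adjusted p under 0.05 in this exact test, with 12 when high-salt replicate 1 was left out. At the unadjusted threshold, 83 were called higher without control replicate 2, and 241 higher and 281 lower without high-salt replicate 1. Without high-salt replicate 2 the counts were 155 higher and 110 lower. A quasi-likelihood test with expression filter called 53 higher and 65 lower. Blocking on the replicate number gave 83 and 82. With the settings on which Mmp9 and Spp1 were chosen (unrounded counts, no filter, tagwise dispersion), 203 were called higher and 165 lower. Which direction had more calls thus depended on the settings.

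The other matrix genes can be described only where a transcript was paired with a name, which was possible for transcripts that the study chose on the same contrast. Of 77 symbols in the matrix list, Mmp9 and Spp1 included, 13 were matched, with 14 transcripts. By their mean level 8 were higher and 6 lower on the high-salt diet, and the exact test of edgeR called 5 higher and 4 lower, beside the 0.577% and 0.647% of all transcripts. The groups did not overlap for 4 of the 14, beside 5.50% of all. Their direction follows from the choice and is no evidence about the list. Of the 8 higher transcripts, 7 were highest in high-salt replicate 2, Mmp9 being the exception. Without high-salt replicate 2, 7 transcripts were higher and 6 lower, and 1, that of Omd, had no count left.

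Among proteases other than Mmp9, the transcript of Adamts7, a metalloproteinase that cleaves cartilage oligomeric matrix protein, had 0, 0 and 34.5 counts in the controls and 35, 381 and 63.6 under high salt. All high-salt levels were above all control levels in CPM. Adamts13, which cleaves von Willebrand factor, had 0, 44.5 and 162 counts in the controls and none under high salt. It was thus seen in 2 control libraries, with overlap of the groups.

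Among the structural glycoproteins and proteoglycans, Prelp, a leucine-rich repeat protein of connective tissue, had 71.8 counts in control replicate 3 and 1258 and 395 in high-salt replicates 2 and 3. Omd, osteomodulin of the same family, had 674 counts in high-salt replicate 2 and none after rounding elsewhere. High-salt replicate 2 was the highest library for both. Fras1, an extracellular matrix protein of basement membranes, had 4, 58 and 51 counts in the controls and 7, 356 and 306 under high salt, where replicate 1 kept the groups overlapping. Thbs4, a thrombospondin, had 90, 326 and 339 counts in the controls and 32.4, 16.3 and 98.2 under high salt, or 11.8 ± 3.78 against 2.47 ± 2.06 CPM (SD, n = 3). These levels did not overlap. Thbs4 was the only transcript of the 14 besides Fras1 that was present in every library.

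Collagen VI chains and enzymes that act on collagen or proteoglycans were also among the named transcripts. Col6a1 had 88.6 counts in control replicate 1 alone. The read-sharing set of Col6a1 was abundant in every library, with 3132, 18687 and 12231 counts in the controls and 6128, 13361 and 9237 under high salt. Col6a6 had 1, 31 and 25 in the controls and none under high salt. Fkbp10, a prolyl isomerase that acts on collagen in the endoplasmic reticulum, had 26.8, 160 and 116 counts in the controls and 12.6, 0 and 0 under high salt. The levels of the Fkbp10 transcript did not overlap between the groups. For Col6a6 the groups were parted by 1 count in control replicate 1, which is under the floor of 3 counts. Xylt2, a xylosyltransferase that starts the sugar chains of proteoglycans, resembled Spp1 in its libraries, with 76.4, 422 and 0 counts under high salt and 2.83 in control replicate 1.

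**Figure D4:**
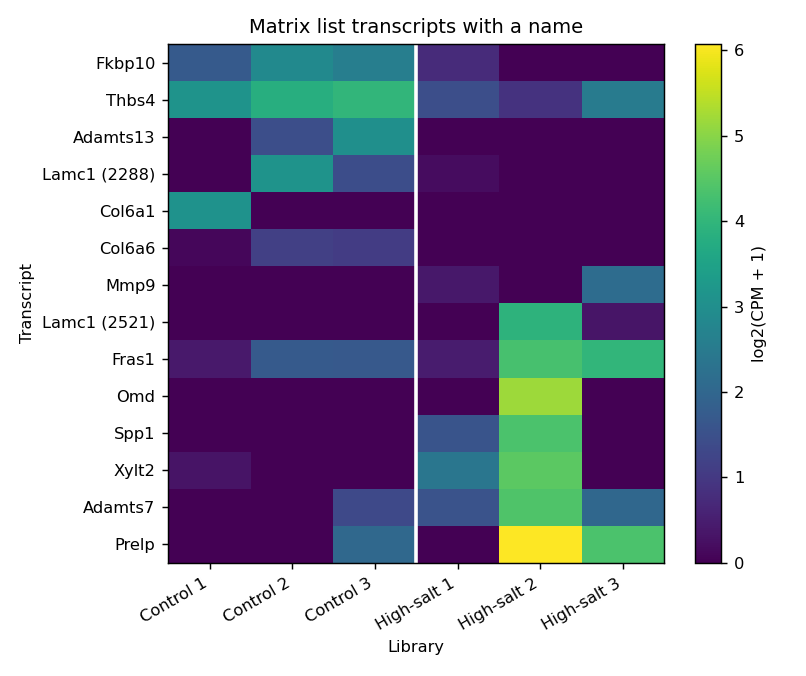
Levels of the 14 named transcripts of the matrix list in each library, as log2(CPM + 1) by colour, ordered by the difference of the group means. The white line parts the control from the high-salt libraries, and the brightest cell is Prelp in high-salt replicate 2, at 66.3 CPM.

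The 2 transcripts of Lamc1, the gamma 1 chain of laminin, differed in opposite directions although they share reads. One had 193 and 38.8 counts in control replicates 2 and 3 and 2.69 in high-salt replicate 1, and the other had 268 and 5.47 in high-salt replicates 2 and 3. The set of 3 transcripts that holds both had 1128, 4031 and 4078 counts in the controls and 1935, 4342 and 3495 under high salt, a difference of 0.19 on the log2(CPM + 1) scale. In each library the set of Lamc1 thus held far more counts than either of its chosen transcripts. Without high-salt replicate 2 the difference of the set was -0.059, in the other direction, and that of the higher transcript went from 1.42 to 0.17.

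Read-sharing sets of this kind were found for 9 of the 14 transcripts, Spp1 among them and Mmp9 not. The 8 besides Spp1 lie in 7 sets, since both Lamc1 transcripts share 1. For each of these 8, the difference of the set was smaller in size than that of the single transcript, as for 98.4% of the called transcripts that lie in sets and 61.1% of all tested ones that do. The median size was 2.07 on the log2(CPM + 1) scale for the single transcripts and 0.19 for the sets, and the sign differed for 4 of the 8. Prelp went from 2.78 to -0.03, Xylt2 from 2.20 to -0.02 and Fkbp10 from -2.15 to -0.34. Adamts7 went from 2.21 to 1.06, with 26, 90 and 230 counts of its set in the controls and 143, 381 and 144 under high salt, and the groups of the set overlapped. The set of Thbs4 stayed lower under high salt, also with overlap, and the set of Fkbp10 was the only one of the 7 without overlap, beside 5.50% of all transcripts tested. The Fkbp10 set was parted by a very small margin, as control replicate 3 and high-salt replicate 2 were almost level in CPM. Without high-salt replicate 2 the median size was 1.38 for the single transcripts and 0.27 for the sets, and the sign differed for 2 of the 8. Prelp then went from 1.48 to -0.25, Xylt2 from 1.08 to 0.07 and Adamts7 from 1.35 to 0.62. The single transcripts were chosen for a large difference and the sets were not, so a smaller difference in the set follows in part from the choice. Among all called transcripts that lie in such sets, 124 in number, the median size was 1.39 for the transcript and 0.24 for the set, with a sign that differed for 32.3%. Among all 6700 tested transcripts in such sets the medians were 0.32 and 0.22 and the sign differed for 30.1%, close to the share among the called ones. For Spp1 the values were 1.97 and -0.95, so its set differed more than the median set and in the other direction.

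**Figure D5:**
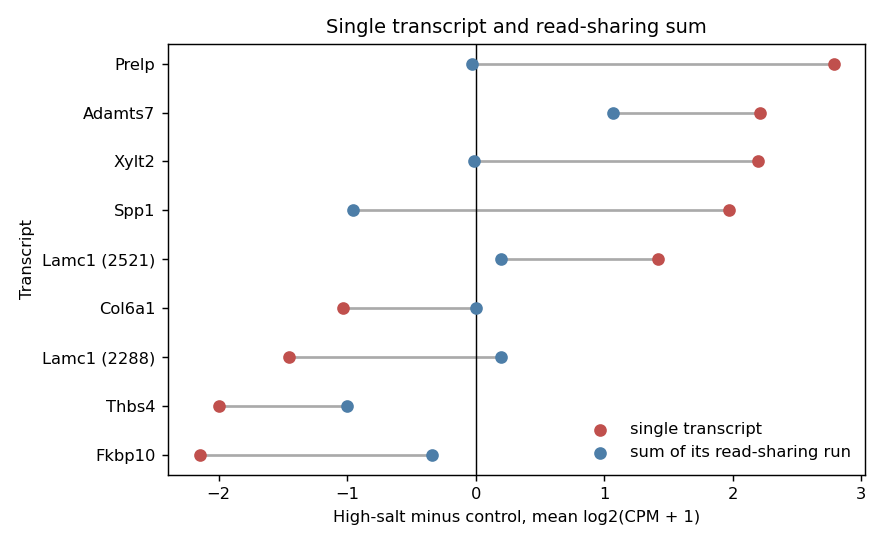
Difference between the diets on the log2(CPM + 1) scale, high-salt minus control, for 9 matrix transcripts (red) and for the sum of the transcripts that share reads with each (blue). Prelp moves from 2.78 to -0.03, and Spp1 moves from 1.97 to -0.95.

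The study drew Mmp9 and Spp1 in a module of interacting proteins together with Erbb2 and Igf1. Erbb2, a receptor tyrosine kinase, had 210 counts in high-salt replicate 2 and none elsewhere. Igf1, a growth factor for smooth muscle, was the reverse, with 0.712, 3.71 and 2.60 CPM in the controls and 0.128, 0 and 0 CPM under high salt. The groups did not overlap for Igf1 alone of the 4, beside 5.50% of all transcripts tested. The exact test of edgeR called 1 of the 4 higher, Spp1, and 1 lower, Igf1, beside 0.577% and 0.647% of all. These transcripts were chosen on the same contrast, and nothing is read from the counts. No high-salt library held all of these single transcripts of Mmp9, Spp1 and Erbb2.

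Since neutrophils and macrophages also make these proteins, the marker lists of other cells are given beside them. Of 8 granulocyte symbols, 3 were matched, again only through transcripts that the study chose on this contrast. All 3 were called higher, beside 0.577% of all transcripts, and had no overlap between the groups, beside 5.50%, and nothing is read from these counts. For Mpo and Tpsg1 the groups were parted by about 2 counts in the lowest high-salt library, under the floor of 3. Mpo, the myeloperoxidase of neutrophil granules, had 2.02, 2 and 38.6 counts under high salt and none in the controls, while the 2 transcripts of its read-sharing set had 8, 0 and 0 counts in the controls and 7, 2 and 236 under high salt, with overlap. Prg2, the major basic protein of eosinophils, had 8, 85 and 34.2 counts under high salt and 1 in control replicate 2. Tpsg1, a tryptase of mast cells, had 2, 18 and 17 counts under high salt and none in the controls. Summed, the list stood at 0, 0.0397 and 0 CPM in the controls and at 0.658, 5.53 and 4.38 CPM under high salt. Prg2 made up the largest part of it in high-salt replicates 1 and 2, and Mpo in replicate 3. The mean of the sum under high salt was 3.52 CPM with all libraries and 2.52 CPM without high-salt replicate 2. Mpo, like Mmp9, was highest in high-salt replicate 3, while Prg2 and Spp1 were highest in high-salt replicate 2. The part of these cells in the levels of Mmp9 and Spp1 was not tested.

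Of 15 symbols for macrophages, lymphocytes and other leukocytes, 9 were matched, 6 with a higher and 3 with a lower mean in the high-salt diet group. The test called 3 higher and 2 lower, beside 0.577% and 0.647% of all transcripts, and the groups did not overlap for 2, beside 5.50%. These transcripts were chosen on the same contrast, and nothing is read from the counts. The summed level was 22.2, 20.6 and 1.43 CPM in the controls and 10.1, 16.8 and 2.38 CPM under high salt, with overlap. Its mean under high salt was 9.75 CPM with all libraries and 6.23 CPM without high-salt replicate 2. The largest part of the sum was Laptm5 in control replicate 1, at 21.9 CPM, and Syk, a tyrosine kinase, in control replicate 2, at 16.1 CPM. Laptm5, a lysosomal protein of blood cells, had 258, 52.3 and 32.4 counts in the controls and 0.0791, 0 and 4.54 under high salt. The read-sharing set of Laptm5 had 2420, 3239 and 2519 counts in the controls and 3536, 1800 and 2965 under high salt. Its groups overlapped, and the difference on the log2(CPM + 1) scale was -0.05 against -2.37 for the single transcript. Cd5l, a secreted protein of macrophages, went the other way, with 1, 0 and 0 counts against 8, 77 and 5. Sla and Slc40a1, like Mmp9, had rounded counts in high-salt replicates 1 and 3 alone, and Ciita, like Spp1, in replicates 1 and 2 alone. Each was highest in high-salt replicate 1, unlike Mmp9 and Spp1, and the remaining matched transcripts had other patterns. The list thus had no common direction.

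Of 10 neuron and glia symbols, 6 were matched, 1 higher and 5 lower in mean level, with 2 called lower, both without overlap, beside 0.647% and 5.50% of all transcripts. These 2, Gabra3 and Scn2a, were parted by 1 and 3.04 counts in control replicate 1, beside the floor of 3 counts. They too were chosen on the same contrast. Their sum was 1.45, 4.02 and 12.5 CPM in the controls and 0.000499, 6.57 and 0 CPM under high salt. The mean under high salt was 2.19 CPM with all libraries and 0.00025 CPM without high-salt replicate 2. The largest part of the sum was Aqp4, the water channel of astrocytes, in control replicate 3, at 8.91 CPM, and Slc17a7, a glutamate transporter of neurons, in control replicate 2, at 2.22 CPM. The 6.57 CPM of high-salt replicate 2 came from Gpm6a, a membrane glycoprotein of neurons, with 125 counts there and none elsewhere. Its read-sharing set had 873, 1103 and 934 counts in the controls and 635, 835 and 630 under high salt, a difference of -0.49 on the log2(CPM + 1) scale with overlap of the groups, and so in the other direction. The fibroblast list matched 2 of 6 symbols, Omd and Prelp, which also stand in the matrix list. Together these stood at 3.17 CPM in control replicate 3 and at 102 and 19.3 CPM in high-salt replicates 2 and 3, with no rounded count in the other 3 libraries, so the groups overlapped. The mean under high salt was 40.3 CPM with all libraries and 9.63 CPM without high-salt replicate 2. No name was paired with a transcript for the 6 endothelial and 3 red cell symbols, and these were not analysed here.

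The label of the cells could be checked through 1 of the 8 smooth muscle symbols. The transcript of Kcnmb1, a subunit of the calcium-activated potassium channel of smooth muscle, had 0, 155 and 145 counts in the controls and 0, 0 and 8.92 under high salt. The set of 3 transcripts that share its reads was present in all 6 libraries, with 501, 1429 and 2119 counts in the controls and 846, 815 and 936 under high salt. On the log2(CPM + 1) scale the difference was -0.43 for the set and -1.73 for the single transcript, with overlap of the groups for both. The other 7 symbols, the contractile proteins among them, were not paired with a transcript.

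Likeness of pattern was measured as the cosine between TMM-scaled CPM over the 6 libraries. For Mmp9 the 3 most similar named transcripts were those of Stk38, Zmym6 and M6pr, each above 0.999. The Zmym6 transcript had 13.4, 0 and 118 counts under high salt. For Spp1 they were Sptssb, Nedd4l and Fyn, also above 0.999, and that of Sptssb had 12.7, 117 and 0 counts under high salt. A cosine of at least 0.99 was reached by 384 transcripts for Mmp9 and by 287 for Spp1. Of these, 299 and 162 had rounded counts in a single library. Between Mmp9 and Spp1 the cosine was 0.00936, as their highest libraries differed.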

How the data were processed

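RNA of 6 BASMC libraries, 3 per group, was analysed, with groups and replicate numbers from the labels. The authors used Trimmomatic for trimming and FastQC for quality, and the deposited values are the unscaled estimated count of each transcript from Kallisto. The submitters' processing notes also list HISAT2 2.0.13 and the build Rnor_6.0. The members and lists were chosen with earlier results of these data known.

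Counts were rounded, and transcripts with at least 1 rounded count were compared with the exact test of edgeR 4.0.16 (R 4.3.3, TMM). Per-library levels used the unrounded counts with a pseudocount of 1 CPM. Read-sharing sets were the smallest runs of at most 10 neighbouring transcripts with non-whole counts whose sum was whole in each library. A sum could miss a whole number by 0.001 for each transcript plus the rounding of each value in the file. In this way 2856 sets held 6744 transcripts. A self-test with 200 changed genes in simulated data was also set up, and its outcome is not given here.

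Transcripts were named by matching the log2 fold change and p value of 368 entries in the study's list of changed transcripts to the same test on the deposited counts, and 362 entries matched 1 transcript. The text names Mmp9 and Spp1, their read-sharing transcripts, named transcripts of fixed lists and the 3 most similar named transcripts. The study also measured Mmp9 by quantitative PCR, which was not used here.

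Deviations from the group means were compared between libraries of the same replicate number across 17930 transcripts, which are not independent. The correlations were 0.516, 0.181 and 0.211 for replicates 1, 2 and 3, each above the 0.1 set for pairing. Among unmatched libraries the correlation was 0.162 for control 2 and high-salt 3, 0.0868 for control 3 and high-salt 2, and -0.354 to -0.220 for the other 4 combinations. The 0.162 is also above 0.1, so a match by number was distinct for replicate 1 alone. The deviations of a group sum to 0, so these correlations depend on one another. The labels do not state a pairing. Alternatives were other normalizations, filters, tests (DESeq2 1.42.0), pseudocounts, summed transcripts, the replicate block and leaving out each library.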

Additional observations from a re-analysis of the deposited data

How the results depend on the processing

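The differences between the diets of Mmp9, Spp1 and the Spp1 sums kept their direction under each alternative run, except that Mmp9 was at 0 in both libraries of replicate number 2 and Spp1 in both of number 3. The sum of Mmp9 with the transcript before it did not: it was -0.25 to 0.82 with 1 library left out, and 0.54, -1.05 and 1.41 within the pairs of the replicate block, and the cause was not tested. With a pseudocount of 0.1 CPM the difference was 2.40 for Mmp9 and 3.99 for Spp1. Leaving out 1 library gave 0.20 to 1.27 for Mmp9, 0.79 to 2.96 for Spp1, -1.22 to -0.42 for the Spp1 pair and -0.39 to -0.19 for the 4-transcript sum. Within the pairs of the replicate block, Mmp9 differed by 0.39, 0 and 2.14 for numbers 1, 2 and 3, the Spp1 transcript by 1.58, 4.35 and 0, the pair sum by -1.54, -0.72 and -0.60, and the 4-transcript sum by -0.65, -0.073 and -0.18. These within-number values, the 4-transcript sum, the sum of Mmp9 with the transcript before it and the list and set values without high-salt replicate 2 were chosen after seeing the data.

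The number of transcripts called higher was 62 after the expression filter of edgeR, 53 in the quasi-likelihood test, 83 in that test with the replicate block, and 83 to 241 with 1 library left out. DESeq2 called 96 higher and 92 lower, and summed read-sharing transcripts gave 108 and 134. Unrounded counts without a filter and with tagwise dispersion, changed together, gave 203 and 165. The number called lower was 71, 65 and 82 in the first 3 settings and 110 to 281 with 1 library left out. The expression filter left fewer transcripts to test, 17915, and the quasi-likelihood tests and DESeq2 were run on this number too. Otherwise the cause was not tested. With the replicate block no transcript had an adjusted p under 0.05 in the quasi-likelihood test of edgeR, where 327 had an unadjusted p under 0.05. At this depth a transcript at 0 may have been present below 3 counts.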
